A study of Mus musculus with 4 samples.

Results

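The genes described here are 9 that carry fluid and ions in salivary gland (SG) epithelium: Slc12a2, Ano1, Aqp5, Kcnma1, Kcnn4, Slc4a4, Cftr, Scnn1a and Itpr3. They are named for their known role in secretion, and each was found by its gene name among the non-control probes of the array. All 9 were present, with 14 probes, out of 34844 gene names and 55681 probes on the array. Expression was measured in female C57/BL6 mice at 10 weeks of age on 1-colour Agilent arrays, with 2 arrays labelled Myd88-KO and 2 labelled Wildtype. Myd88-KO mice (Myd88-null, Myd88-/- in the study) lack the adaptor protein of most Toll-like receptors and of the interleukin-1 receptor family in every cell, and Wildtype mice carry the intact gene (Myd88+/+). The study's methods give the mice as offspring of heterozygous parents. The tissue is named as submandibular and sublingual glands (SMGs and SLGs) in the labels and as whole SMGs in the study's text. The study's text gives more animals per genotype than there are arrays per label. The labels do not say whether an array holds 1 mouse or a pool, so a p-value measures only the spread between these arrays, which may be technical.

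Saliva is made in steps, and each step has its own transporters. Acinar cells load chloride from the blood side with a sodium-potassium-chloride cotransporter. A nerve signal then releases calcium from internal stores, calcium opens a chloride channel on the luminal side and potassium channels that keep the cell negative, and water follows the salt through an aquaporin. The ducts afterwards take back sodium and chloride, add potassium and bicarbonate, and pass on a dilute fluid. A bulk array cannot tell fewer cells of a type from less RNA per cell.

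A single slide, scanned 1 time, held all 4 arrays. Values are log2 processed signals minus the 75th percentile of their array, so that 0 is the signal of that percentile and a difference of 1 is a doubling. Values of different probes cannot be set against each other. The percentile lay at an intensity of 237 and 256 on the Myd88-KO arrays and 269 and 321 on the Wildtype arrays. On Myd88-KO arrays 1 and 2, 52.2% and 68.4% of the probes were well above background, against 74.2% and 55.1% on Wildtype arrays 1 and 2, and the share thus differed within each label. Differences were therefore also taken between arrays with like shares, Myd88-KO array 1 minus Wildtype array 2 and Myd88-KO array 2 minus Wildtype array 1. Of 22321 genes tested with limma, 0 (0%) were below the threshold of 0.05 after adjustment, with 0.195 as the lowest adjusted p. The median difference over all genes tested was 0.06. The single Myd88 probe read 1.51 and 1.41 on the Myd88-KO arrays and 1.15 and 1.07 on the Wildtype arrays, higher in the arrays labelled Myd88-KO. It starts at base 1629 of the transcript (chromosome 9, 119245322 to 119245381, mm9). The sources used here do not state which exons were deleted, so that this probe does not check the labels. All 10 submandibular acinar markers on the array, among them Lpo, the salivary peroxidase, and 6 of 9 sublingual mucous markers were well above background on all 4 arrays.

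Of the 9 transport genes, 3 had an unadjusted p under 0.05, and all 3 were higher in Myd88-KO glands: Slc12a2 by 1.34-fold, Scnn1a by 1.41-fold and Kcnma1 by 1.49-fold. Over all genes tested 16.6% had such a p, 9.81% in the higher and 6.82% in the lower direction. After adjustment none of the 9 genes was below the threshold. For 6 of the 9 genes the labels did not overlap, that is, both arrays of one label lay above both arrays of the other, which was also so for 52% of all genes tested. Of these 6, Slc12a2, Aqp5, Kcnma1, Scnn1a and Itpr3 were higher (5 genes, against a share of 33.2% of all genes) and Slc4a4 was lower (1 gene, against 18.8%) in Myd88-KO glands. By the sign of the difference alone, 6 of the 9 genes were higher, against 59.6% of all genes. The difference was under 1.5-fold for 8 of the 9 genes, against 87.3% of all genes tested, and the median difference of the 9 genes was 0.09. The count of 3 higher genes fell in each fit with 1 array left out, which keeps 1 array of a label. In these fits the difference was 0.37 to 0.48 for Slc12a2, 0.38 to 0.61 for Scnn1a and 0.39 to 0.76 for Kcnma1. For Slc4a4 it was -1.45 to -0.36.

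**Figure D1:**
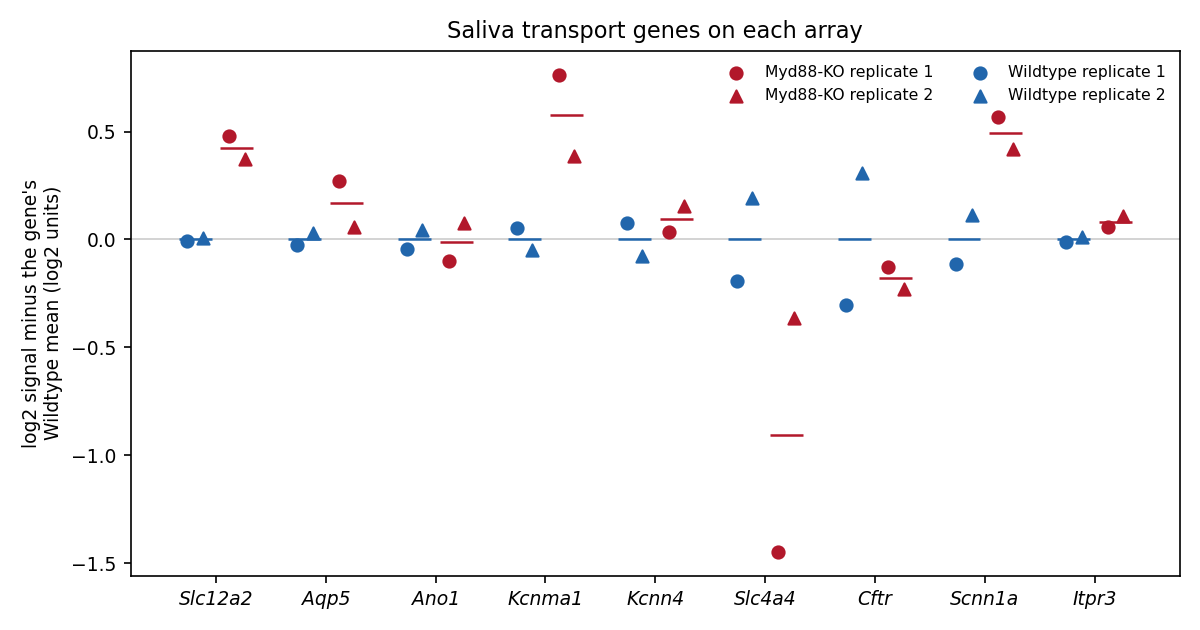
Log2 signal of each of the 9 genes on each array, drawn relative to the mean of the Wildtype arrays of that gene (vertical axis, log2 units). Points are single arrays, circles for replicate 1 and triangles for replicate 2, and short lines are means of 2 arrays. Slc12a2, Kcnma1 and Scnn1a lie higher on both Myd88-KO arrays, the arrays of Ano1, Kcnn4 and Cftr overlap between labels, and the Myd88-KO arrays of Slc4a4 lie far apart.

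Slc12a2 encodes NKCC1, the cotransporter that brings chloride into acinar cells from the blood side. Its signal was 7.42 and 7.32 on the Myd88-KO arrays and 6.94 and 6.95 on the Wildtype arrays. Both Myd88-KO arrays were thus higher than both Wildtype arrays, and the replicates of each label lay close together. The log2 difference was 0.42 (SE 0.10, 95% confidence interval 0.13 to 0.72, n = 2 per label), with an unadjusted p of 0.0165 and an adjusted p of 0.227 (limma). It was 0.47 and 0.38 between arrays with like shares of detected probes.

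The other genes of chloride uptake include the exchangers that work beside NKCC1 and the sodium pump. Of the 18 genes of this group that were tested, Slc12a2 included, 3 were higher and 2 lower at an unadjusted p under 0.05. The one that was highest over Wildtype was Slc4a2 (AE2), a chloride-bicarbonate exchanger of the blood side, with 7.36 and 7.09 on the Myd88-KO arrays and 6.32 and 6.50 on the Wildtype arrays. Its difference of 0.82 (SE 0.15, unadjusted p 0.00694, adjusted p 0.205) came with no overlap between labels. Slc4a9, a related exchanger, was higher by 0.33. Potassium-chloride cotransporters carry chloride out of cells. Of these, Slc12a4 (KCC1) was lower with a difference of -0.50, whereas Slc12a7 (KCC4) overlapped between labels at 0.17. Slc12a1, the kidney form of the cotransporter, was not well above background on any array, and Slc12a3 was so on 1 array of each label and was not tested.

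The sodium pump drives this uptake. Of its beta subunits, Atp1b1 read 6.42 and 6.37 on the Myd88-KO arrays and 6.10 and 6.17 on the Wildtype arrays. The difference was 0.26 without overlap, with an unadjusted p of 0.0622 (limma). Atp1b2 went the other way without overlap, with a difference of -0.41 and an unadjusted p of 0.085 (limma). Atp1b3 overlapped between labels at -0.04.

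Most markers of the acinar cells, in which NKCC1 is best known, were also higher on the Myd88-KO arrays. Of 8 submandibular acinar markers tested, not counting Slc12a2 and Aqp5, 7 were higher, 5 of them with an unadjusted p under 0.05 (Dcpp1, Pip, Prol1, Smgc and Spdef). Prb1 was lower. The summed level of these 8 markers was 5486 and 5375 on the Myd88-KO arrays and 4038 and 4198 on the Wildtype arrays, in multiples of the 75th percentile. Such a sum follows its brightest probes, here Dcpp1 with 28.3% to 30.9% of it, and serves only to set the arrays side by side. Their part in the differences of Slc12a2 and Aqp5 was not tested.

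Ano1 encodes the calcium-activated chloride channel TMEM16A, through which chloride leaves the acinar cell into the lumen. Its signal was 5.31 and 5.49 on the Myd88-KO arrays and 5.37 and 5.45 on the Wildtype arrays. The labels overlapped, with the lowest and the highest value both on Myd88-KO arrays. The difference was -0.01 (SE 0.12, 95% confidence interval -0.35 to 0.33, adjusted p 0.974), so that a change of up to 0.35 in log2 units lies within its interval. Its sign turned when Myd88-KO replicate 1 (0.08) or Wildtype replicate 2 (0.03) was left out.

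Among the other apical anion channels and exchangers, 11 genes were tested in all, with 1 higher and 1 lower at an unadjusted p under 0.05. Ano6, a relative of Ano1 that scrambles membrane lipids, was higher by 0.60 (SE 0.10, adjusted p 0.200) with no overlap. The lower gene was Clca2, which belongs to a family that modulates chloride channels. Clca2 passed the filter only through the Wildtype arrays, so that its direction follows from the filter. It was not well above background on either Myd88-KO array. It was at least 2.53-fold lower there by the mean of the Wildtype arrays. The bound was 3.1-fold from Wildtype array 1 alone and 2.06-fold from Wildtype array 2 alone.

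Aqp5 encodes the water channel of the luminal acinar membrane. The array carries 2 probes for it, and the second is shown because it lies upstream of the first on the same transcript (base 945 against 1428) and reads another stretch of it in the same RNA samples. It covers chr15:99424655-99424714 on the plus strand (mm9), and the sequence is that of the probe in the deposited files.
Aqp5 probe 2: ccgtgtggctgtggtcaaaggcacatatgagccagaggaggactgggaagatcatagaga
The brighter probe, at chr15:99425138-99425197, read 7.11 and 6.90 on the Myd88-KO arrays and 6.81 and 6.87 on the Wildtype arrays. The probe printed above read 5.40 and 5.12 against 5.09 and 4.97. On both probes the labels did not overlap, by a narrow margin in each case. The difference of the brighter probe, which stands for the gene, was 0.17 (SE 0.12, 95% confidence interval -0.19 to 0.52, adjusted p 0.558), and that of the other probe was 0.23 (SE 0.15, adjusted p 0.554). The interval includes 0, and the difference was 0.06 without Myd88-KO replicate 1 and 0.27 without Myd88-KO replicate 2.

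Of 8 water channel genes tested, none was higher and 2 were lower at an unadjusted p under 0.05, Aqp1 and Aqp3. Aqp3 passed the filter only through the Wildtype arrays, so that its direction follows from the filter. Aqp1, the aquaporin of capillary endothelium, was lower in Myd88-KO glands, at 2.61 and 2.76 against 3.47 and 3.35, with a difference of -0.73 (SE 0.12, unadjusted p 0.00439, adjusted p 0.201) and no overlap. Of 8 endothelial markers, 5 were lower and 3 higher, and Cdh5, Egfl7, Esam and Tie1 were lower and Emcn higher at an unadjusted p under 0.05. Their summed level was 42.6 and 48.5 on the Myd88-KO arrays and 42.0 and 53.6 on the Wildtype arrays, which overlap. Kdr made up 37.2% to 55.3% of this sum, and without it the sums were 19.1 and 21.8 against 26.3 and 28.4, which do not overlap. Their part in the Aqp1 value was not tested. Aqp3, the glycerol-permeable aquaporin of basal epithelial membranes, was not well above background on either Myd88-KO array and read -2.01 and -3.74 on the Wildtype arrays. It was at least 2.18-fold lower in Myd88-KO glands by the mean of the Wildtype arrays, and the bound was 3.96-fold from Wildtype array 1 alone and 1.19-fold from Wildtype array 2 alone. Aqp2, Aqp4, Aqp7, Aqp8 and Aqp11 had differences between -0.20 and 0.19 on their brightest probes. Another Aqp4 probe, well above background on 3 arrays, had -1.25 with overlap between labels, and another Aqp11 probe had 0.49. Aqp6, Aqp9 and Aqp12 were too dim to be tested.

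Kcnma1 encodes the pore of the large-conductance calcium-activated potassium channel (BK), which acts with Kcnn4 in acini and secretes potassium in ducts. It has 3 probes on chromosome 14, all on the strand of the gene and can be read as separate measurements of the same RNA samples. The brightest, designed on a cDNA clone and lying between the others (24126279 to 24126338, mm9), read 2.14 and 1.76 on the Myd88-KO arrays and 1.43 and 1.33 on the Wildtype arrays. The probe at base 3436 of the transcript (24130916 to 24130975) read -1.67 and -1.42 against -2.22 and -2.25. The probe at base 4273 (24118701 to 24118760) read 1.33 and 1.25 against 0.86 and 0.91. On all 3 probes both Myd88-KO arrays were higher than both Wildtype arrays. The differences were 0.58, 0.69 and 0.40 in this order. The brightest probe, which stands for the gene, had an SE of 0.17, a 95% confidence interval of 0.08 to 1.07, an unadjusted p of 0.0317 and an adjusted p of 0.263. Its value was 0.39 without Myd88-KO replicate 1 and 0.76 without Myd88-KO replicate 2.

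Kcnn4 encodes the intermediate-conductance channel (IK1). Its probe spans 599 genomic bases on chromosome 7 (25169184 to 25169782, mm9) with 60 bases of sequence, and therefore crosses at least 1 intron. The signal was 5.47 and 5.59 on the Myd88-KO arrays and 5.52 and 5.36 on the Wildtype arrays, and the labels overlapped. The difference was 0.09 (SE 0.12, 95% confidence interval -0.24 to 0.43, adjusted p 0.731), and it ranged from 0.02 to 0.17 with 1 array left out.

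Of 12 potassium channel genes tested, 3 were higher and 1 was lower at an unadjusted p under 0.05. Lrrc26, the accessory subunit that lets BK open in secretory cells without a strong rise of calcium, was higher without overlap, at 6.24 and 6.12 against 5.90 and 6.00, with a difference of 0.23 (SE 0.11, adjusted p 0.398). The classical BK beta subunits could not be tested: Kcnmb2 and Kcnmb3 were not well above background on any array, Kcnmb1 was so on Wildtype array 2 alone, and Kcnmb4 on 1 array of each label. Of the small-conductance relatives of Kcnn4, Kcnn3 was higher by 0.59 (SE 0.15), Kcnn2 was not well above background on either Myd88-KO array (at least 1.41-fold lower, or 1.09-fold and 1.83-fold from Wildtype arrays 1 and 2 alone, unadjusted p 0.104), and Kcnn1 was not tested. Kcne3, a small accessory subunit of KCNQ channels, was higher by 0.64 on its brightest probe and by 0.18 on another. Kcnk5, a two-pore potassium channel, had a difference of -0.35.

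Slc4a4 encodes the sodium-bicarbonate cotransporter NBCe1 of the blood side, which supplies bicarbonate for secretion. It had the largest difference of the 9 genes and also the widest spread. A pair of its probes overlap on the plus strand of chromosome 5 (mm9). The first covers chr5:89663826-89663885 and the second starts 12 bases further on, at 89663838, so that they share 48 of their 60 bases. The first is printed because readings from nearly the same sequence show how far a value depends on the probe. Capitals mark the bases it shares with the second.
Slc4a4 probe 2: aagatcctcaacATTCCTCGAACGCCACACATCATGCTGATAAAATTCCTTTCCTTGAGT
The probe printed here read -1.93 and -1.19 on the Myd88-KO arrays and -0.62 and -0.60 on the Wildtype arrays. The overlapping probe, which was brighter by its mean and stands for the gene, read -2.03 and -0.94 against -0.77 and -0.39. On both probes the Myd88-KO arrays lay below the Wildtype arrays, with array 1 far below array 2. The printed probe had a difference of -0.95 (SE 0.29, unadjusted p 0.0353, adjusted p 0.325), and the overlapping probe had -0.91 (SE 0.43, 95% confidence interval -2.14 to 0.33, unadjusted p 0.109, adjusted p 0.392). Nearly the same sequence thus lay on different sides of an unadjusted p of 0.05, with differences 0.04 apart. The third probe, at 89668602 to 89668661, was well above background on Wildtype array 1 alone and was not tested.

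The size of the Slc4a4 difference depended on Myd88-KO array 1. Without that replicate it was -0.36, and without Myd88-KO replicate 2 it was -1.45. Between arrays with like shares of detected probes it was -1.64 for Myd88-KO array 1 and -0.17 for Myd88-KO array 2. The same array was lowest for the summed level of 10 adipocyte markers, which read 188 and 286 on the Myd88-KO arrays and 388 on each Wildtype array (97.1 and 141 against 192 and 175 without Fabp4, which leads the sum). All 10 adipocyte markers were lower, 4 of them with an unadjusted p under 0.05, and Lep was not well above background on any array. Their part in the Slc4a4 value was not tested. The labels describe removal of fat, connective tissue and lymph nodes during dissection. Markers of lymphocytes and of the neighbouring parotid gland also differed between labels. All 8 B cell markers tested were lower on the Myd88-KO arrays, 7 of them with an unadjusted p under 0.05. So were all 11 T cell markers, 6 of them with such a p. On all 4 arrays, 5 of the 8 B cell and 6 of the 11 T cell markers were well above background. The others passed the filter only through the Wildtype arrays. Of 7 parotid markers, 6 were lower, 4 with such a p, Prb1 among them, which is also counted above as an acinar marker. Their summed levels were 3.39 and 3.29 against 20.8 and 11.6 for B cells, 12.6 and 12.3 against 25.2 and 18.0 for T cells, and 4022 and 2756 against 4599 and 4420 for the parotid gland. The part of these markers in the values of the 9 transport genes was not tested. For B cells the study reported the opposite direction by flow cytometry of SMG cells from male mice. It found more B cells and IgA+ plasma cells in Myd88-/- mice. That measure counts cells by surface protein, and the arrays read RNA of whole tissue from female mice.

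Of the genes well above background on all 4 arrays, the 3 nearest to Slc4a4 in their pattern were Dio2, Ncapg2 and Nat8l. The measure was the root mean square distance between the 4 centred log2 values, over 20497 genes, and it was 0.07, 0.09 and 0.10 in log2 units. Their differences were -0.85, -0.81 and -1.09. The bicarbonate group had 7 genes tested, not all of them transporters. Of these, Slc4a4 included, none had an unadjusted p under 0.05 on the probe that stands for it. Slc4a11 was higher by 0.36 without overlap, Slc4a8 overlapped at 0.44, and Slc4a1, Slc4a3 and Slc4a7 had differences between 0.10 and 0.18. Slc4a5 and Slc4a10 were not tested.

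**Figure D2:**
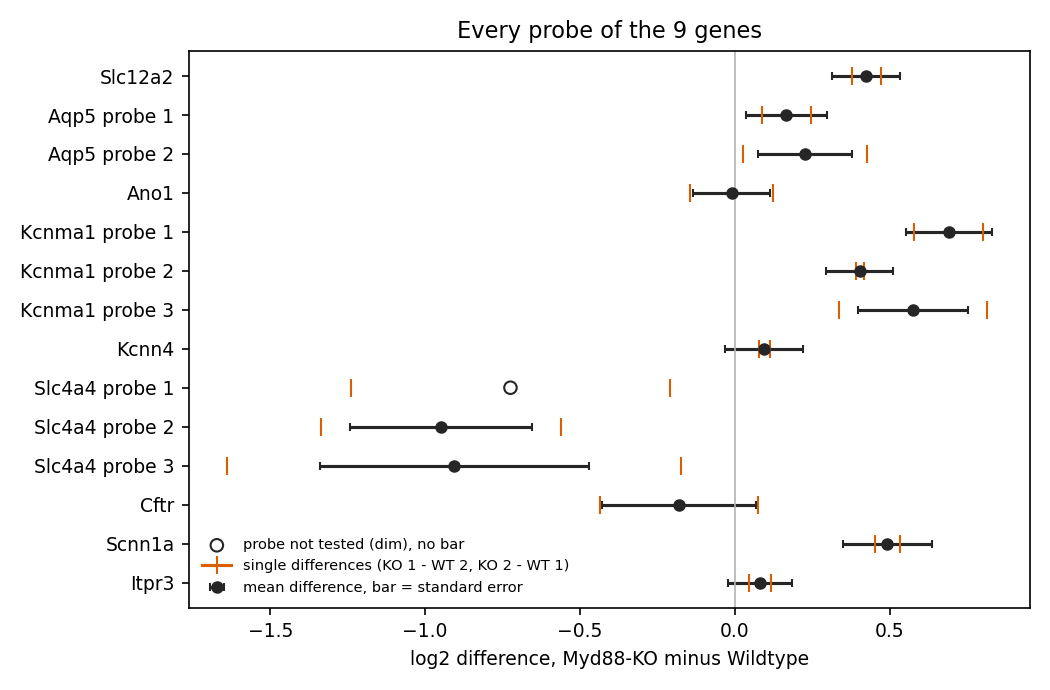
Log2 difference, Myd88-KO minus Wildtype (horizontal axis), for each of the 14 probes, with the standard error as a bar. Orange ticks are the differences between single arrays with like shares of detected probes, and the open circle is the dim Slc4a4 probe that was not tested. The 3 Kcnma1 probes lie between 0.40 and 0.69, and the ticks of the Slc4a4 probes lie farther apart than those of the other genes.

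Cftr and Scnn1a act mainly in the ducts, where they take back chloride and sodium. Cftr, the chloride channel mutated in cystic fibrosis, read -1.53 and -1.63 on the Myd88-KO arrays and -1.71 and -1.10 on the Wildtype arrays. The labels overlapped, and Wildtype array 2 stood above the other arrays. The difference was -0.18 (SE 0.25, 95% confidence interval -0.88 to 0.52, adjusted p 0.756), and it was 0.13 without Wildtype replicate 2. Scnn1a, the alpha subunit of the epithelial sodium channel ENaC, read 3.099 and 2.95 on the Myd88-KO arrays and 2.42 and 2.65 on the Wildtype arrays. Both Myd88-KO arrays were higher than both Wildtype arrays. The difference was 0.49 (SE 0.14, 95% confidence interval 0.10 to 0.89, unadjusted p 0.0263, adjusted p 0.252).

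The other ENaC subunits did not share a clear difference with Scnn1a. Scnn1b, the beta subunit, read 2.10 and 1.76 on the Myd88-KO arrays and 1.60 and 1.86 on the Wildtype arrays, which overlap, with a difference of 0.20 (SE 0.18, adjusted p 0.623). Scnn1g, the gamma subunit, was well above background on Myd88-KO array 1 and Wildtype array 1 alone and was not tested. Whether Scnn1a differed more than Scnn1b was not tested. Sgk1, the kinase that raises ENaC at the membrane in response to aldosterone, was lower, at 2.20 and 2.44 against 2.98 and 3.13, with a difference of -0.74 (SE 0.14, unadjusted p 0.0079, adjusted p 0.206). In all, 9 genes of ductal sodium reabsorption were tested, with Scnn1a higher and Sgk1 lower at an unadjusted p under 0.05.

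Some epithelial keratins were higher as well, whereas markers of striated and granular ducts went both ways. Of 8 keratin and epithelial markers, 5 were higher and 3 lower, and Krt7, Krt8 and Krt18 were higher at an unadjusted p under 0.05. Their summed level was 458 and 463 on the Myd88-KO arrays and 315 and 326 on the Wildtype arrays. Krt18 made up 66.5% to 70.7% of it, and the other 7 markers summed to 153 and 136 against 97.5 and 109. Of 11 markers of striated and granular ducts other than Cftr, 6 were higher and 5 lower, and their summed level overlapped, at 3465 and 3398 against 2977 and 3454. Their part in the Scnn1a value was not tested.

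Itpr3 encodes an inositol trisphosphate receptor, the calcium release channel at the luminal pole of acinar cells. It is read from 10 spots of 1 probe, and the SD between spots of an array was 0.03 to 0.06 in log2 units. Its signal was 3.93 and 3.98 on the Myd88-KO arrays and 3.86 and 3.88 on the Wildtype arrays. The labels did not overlap, yet the difference of 0.08 (SE 0.10, 95% confidence interval -0.20 to 0.36, adjusted p 0.715) was smaller than its error. Itpr2, the other receptor of exocrine acini, was lower by a difference of -0.37 (SE 0.12, unadjusted p 0.0447, adjusted p 0.290), at 3.82 and 3.92 against 4.14 and 4.33. Itpr1 had a difference of -0.20 (SE 0.10, unadjusted p 0.133).

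Of 21 calcium signal genes tested, 2 were higher and 2 lower at an unadjusted p under 0.05. Atp2b4, a calcium pump of the plasma membrane, was higher by 0.71 (SE 0.11, adjusted p 0.198). Orai3, of the store-operated calcium channels, was higher by 0.43 on its brightest probe and by 0.14 and 0.15 on others. Plcb1, a phospholipase that makes inositol trisphosphate, had a difference of -0.79 on its brightest probe and -0.11 on another. Atp2a1, the calcium pump of skeletal muscle, had a difference of -1.20 that did not pass an unadjusted p of 0.05. All 12 other skeletal muscle markers tested, without Atp2a1, were lower on the Myd88-KO arrays and had an unadjusted p under 0.05. Their summed level was 3.48 and 3.69 against 33.4 and 188. Actn3, Myh1, Myh2, Myh4 and Tnnt3 passed the filter only through the Wildtype arrays. The part of the 12 markers in the Atp2a1 value was not tested.

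**Figure D3:**
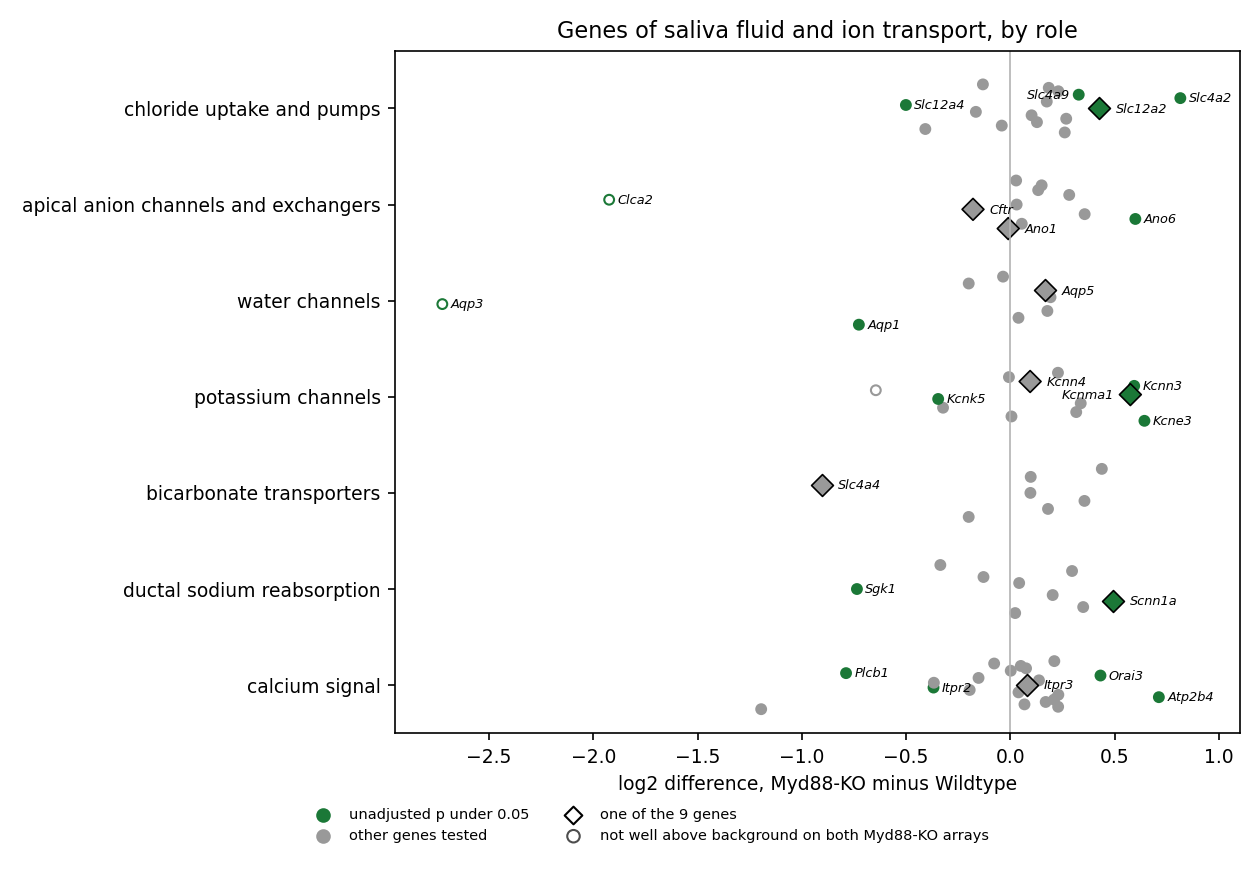
Log2 difference, Myd88-KO minus Wildtype (horizontal axis), of tested genes of saliva fluid and ion transport, in rows by role (3 of the 86 tested are not drawn), with diamonds for the 9 genes. Green marks an unadjusted p under 0.05 and open circles mark genes not well above background on both Myd88-KO arrays, whose measured differences are not bounds. Most genes lie near 0, and every row apart from the bicarbonate transporters holds green points.

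Over all 7 groups, 110 genes were listed and 86 were tested. Without the 9 genes described above, 77 were tested, and 16 of them (20.8%) had an unadjusted p under 0.05, 7 higher and 9 lower, against the 16.6% of all genes tested. Without Myd88-KO replicate 1, 5 were lower in place of 9. None passed the adjusted threshold, and 63 of the 77 differed by less than 1.5-fold. The median difference of these 77 genes was 0.08, against 0.06 over all genes. Of the 9 lower genes, Aqp3 and Clca2 passed the filter only through the Wildtype arrays, so that their direction follows from the filter.

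Under 17 other settings, each array left out in turn included, the sign of the difference was kept for Slc12a2 (0.30 to 0.48), Kcnma1 (0.39 to 0.76), Scnn1a (0.38 to 0.61), Aqp5 (0.05 to 0.27) and Slc4a4 (-1.45 to -0.36). It turned in at least 1 setting for Ano1, Kcnn4, Cftr and Itpr3, which had the smallest differences or overlapping arrays. None of the 9 genes passed the adjusted threshold in any setting. The lowest adjusted p was 0.0509, for Slc12a2 with trended and robust moderation. Under median scaling the fit gave each of the 9 genes the same SE of 0.547. The p-values of that setting thus do not follow the spread of the single gene. Between arrays with like shares of detected probes, 6 of the 9 genes were higher on Myd88-KO array 1 than on Wildtype array 2, and 8 of the 9 were higher on Myd88-KO array 2 than on Wildtype array 1.

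**Figure D4:**
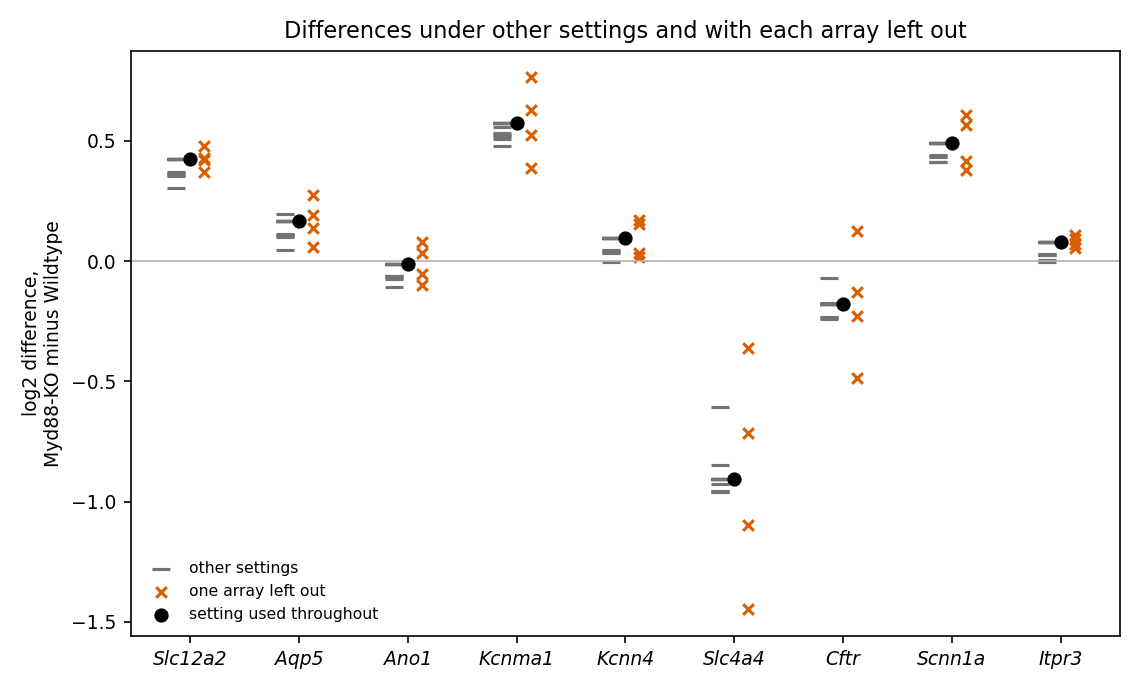
Log2 difference, Myd88-KO minus Wildtype (vertical axis), of each of the 9 genes. Black points are the values given in the text, grey dashes are other ways of processing or testing, and crosses are fits with 1 array left out. Slc12a2, Kcnma1 and Scnn1a stay above 0 in all of them, whereas Slc4a4 stays below 0 but ranges from -1.45 to -0.36.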

How the data were processed

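Cy3-labelled cRNA was hybridized to 4 Agilent arrays. The authors deposited the output of Feature Extraction 10.7.3.1 for each array, whose processed signal is an intensity corrected for background, with no normalization between arrays. Gene names and probe positions (mm9) were those of the files. A RefSeq table (GRCm38.p6) was used for names and strands only and held the names of 13857 among 22321 tested genes. A table of processed values was left out, since the labels do not say which sample each of its 4 columns belongs to.

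Processed signals of the 59305 non-control spots were put on the log2 scale, and the 75th percentile of the array was subtracted. Outlier spots by the Feature Extraction flags (99 to 131 of 59305 non-control spots per array) were dropped where other spots of the probe remained. A probe flagged on all its spots of an array kept its value there. No non-control spot was saturated, and replicate spots were averaged per probe. More than a share of 0.5 of a probe's spots had to be well above background for the probe to count as such. Probes that did so on both arrays of either label were tested, and each gene was represented by its brightest tested probe. The labels were compared in R 4.3.3 with limma 3.58.1 (lmFit, eBayes), two-sided, with Benjamini-Hochberg adjustment over all genes and a threshold of 0.05. Probes were compared in the same way over all probes. The smallest p of an exact permutation test in this design is 0.333. The number of arrays limits the precision. Where a gene was not well above background on any Myd88-KO array, a fold is a lower bound against the lowest signal well above background.

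The genes named are the 9 transport genes, their relatives by name, and other listed transport genes with an unadjusted p under 0.05, no overlap and signal on all 4 arrays, and the 3 genes most like the transport gene with the largest difference. Clca2 (dim), Atp1b1, Atp1b2, Atp1b3, Atp2a1 and the marker genes were named outside this rule, after their values were seen. Some genes that the rule or the lists include are not reported here by name, though the counts hold them. The 9 genes and the gene lists were chosen with earlier results of these data known. Alternatives numbered 16 planned and 4 added after seeing the data.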

Additional observations from a re-analysis of the deposited data

How the results depend on the processing

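No transport gene among the 9 passed the adjusted threshold under any alternative. The signs that turned were those of Kcnn4 (-0.0054) and Itpr3 (-0.0033) under cyclic loess, of Ano1 without Myd88-KO replicate 1 (0.078) or Wildtype replicate 2 (0.033), and of Cftr without Wildtype replicate 2 (0.13). With 1 array left out, Ano1 ranged from -0.099 to 0.078 and Cftr from -0.485 to 0.13. The count of the 9 genes higher at an unadjusted p under 0.05 was 3, and it was 0 with median scaling, 1 with the methods' t-test, 1 where dim probes were not filtered, and 0 to 2 with 1 array left out. Among the other 77 transport genes, 7 were higher and 9 lower, against 0 and 4 with median scaling. With trended and robust moderation 14 were higher. With 1 array left out, 5 to 7 were higher and 5 to 7 lower. Of these genes 2 passed the adjusted threshold with median scaling and 3 with trended and robust moderation (Aqp1, Sgk1 and Slc4a2). With median scaling all 9 genes had the same SE of 0.547, so counts under that setting do not rest on the spread of each gene. The cause of the other changes was not tested.

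The deviations of same-numbered arrays from the mean of their label had a correlation of -0.344 over genes. Deviations within a label are equal and opposite, so crossed arrays give 0.344 by construction. Arrays with like shares of detected probes carry different numbers, so this correlation cannot decide whether the numbers pair the arrays. With the replicate number as a block, 1 of the 9 genes was higher (Kcnma1) and 1 lower (Slc4a4) at an unadjusted p under 0.05, 0 passed the adjusted threshold, and 2403 of all genes had such a p in place of 3713. With crossed pairs as a block, added after seeing the data, 3 of the 9 genes and 4139 of all genes had such a p.

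Over all genes, 0 passed the adjusted threshold, against 65 with normexp, 412 with median scaling, 450 with trended and robust moderation and 1 with the methods' t-test. Counts under median scaling carry the limit given above. Genes with an unadjusted p under 0.05 numbered 986 with median scaling and 2190 to 3020 with 1 array left out. They split into 2190 higher and 1523 lower, but into 1660 and 1875 with the percentile taken over detected probes, 1698 and 1655 with quantile normalization, and 1570 and 2211 with cyclic loess. Dim genes are measured least well on Myd88-KO array 1 and Wildtype array 2.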
